A study of Mus musculus with 6 samples.

Results

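The Mcidas, Ccno and Cdc20b genes lie side by side on mouse chromosome 13 and belong to the programme that makes a cell grow many motile cilia. Gpx8, a neighbour with a different function, lies inside Cdc20b. The 4 genes were chosen by symbol from the 22851 gene rows of the deposited read counts, and all 4 had enough reads to be among the 14243 genes tested. Bulk RNA was sequenced from cultured radial glial cells, the ventricular progenitors of newborn brain, taken from C57BL/6J mice at postnatal days 0 to 3. The cells were kept in medium with 10% serum and then in serum-free medium for 6 days, which turns them into multiciliated ependymal cells, the ciliated lining of the brain ventricles. The design has 3 WT libraries and 3 libraries from Edf1 knockout (Edf1 KO) mice made with CRISPR/Cas9, described as biological replicates, with the same medium and induction in both groups. The labels do not say how many animals went into a culture or whether the knockout comes from more than a single founder line.

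Making many cilia requires many centrioles in a cell that no longer divides. Mcidas encodes multicilin, a coiled-coil protein of the geminin family that acts with E2F4 or E2F5 and DP proteins to switch on centriole amplification genes and Foxj1, and it acts downstream of its relative Gmnc. Ccno encodes cyclin O, an atypical cyclin needed for orderly centriole amplification and for the assembly of deuterosomes, the platforms on which most new centrioles form. Cdc20b encodes a relative of the anaphase activator Cdc20 that takes part in releasing centrioles from deuterosomes, and an intron of the gene hosts the miR-449 microRNAs, which help progenitors leave the cell cycle and become multiciliated. Gpx8 encodes a glutathione peroxidase family protein anchored in the endoplasmic reticulum membrane, where it removes hydrogen peroxide made during protein folding.

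Positions are given on GRCm38, the build named in the submitters' processing notes, with GENCODE M21 gene models. Ccno occupies chr13:112987802-112990777 with 3 exons, and Mcidas follows on the same strand at chr13:112993845-113000394 with 7 exons, so that only 3067 bases separate them. Cdc20b starts 41.27 kb beyond the start of Mcidas, also on the plus strand, and spans chr13:113035111-113091195 with 12 exons in its longest coding transcript. Gpx8 lies at chr13:113042753-113046410 on the minus strand, wholly within intron 2 of Cdc20b, with 3 exons of its own. The same intron holds Mir449a, Mir449b and Mir449c on the strand of Cdc20b. The 4 genes together cover 103.39 kb with no other protein-coding gene between them. No annotated exon of Mcidas, Ccno or Gpx8 overlaps an exon of another gene. Exon 7 of Cdc20b overlaps the antisense gene 4930563N14Rik, which was not analysed here, and strand use in the counting is not given in the sources used here. Of the 31-base words in the longest coding transcripts, 3.37% for Mcidas and 0% for Ccno, Cdc20b and Gpx8 occur in another annotated gene.

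**Figure D1:**
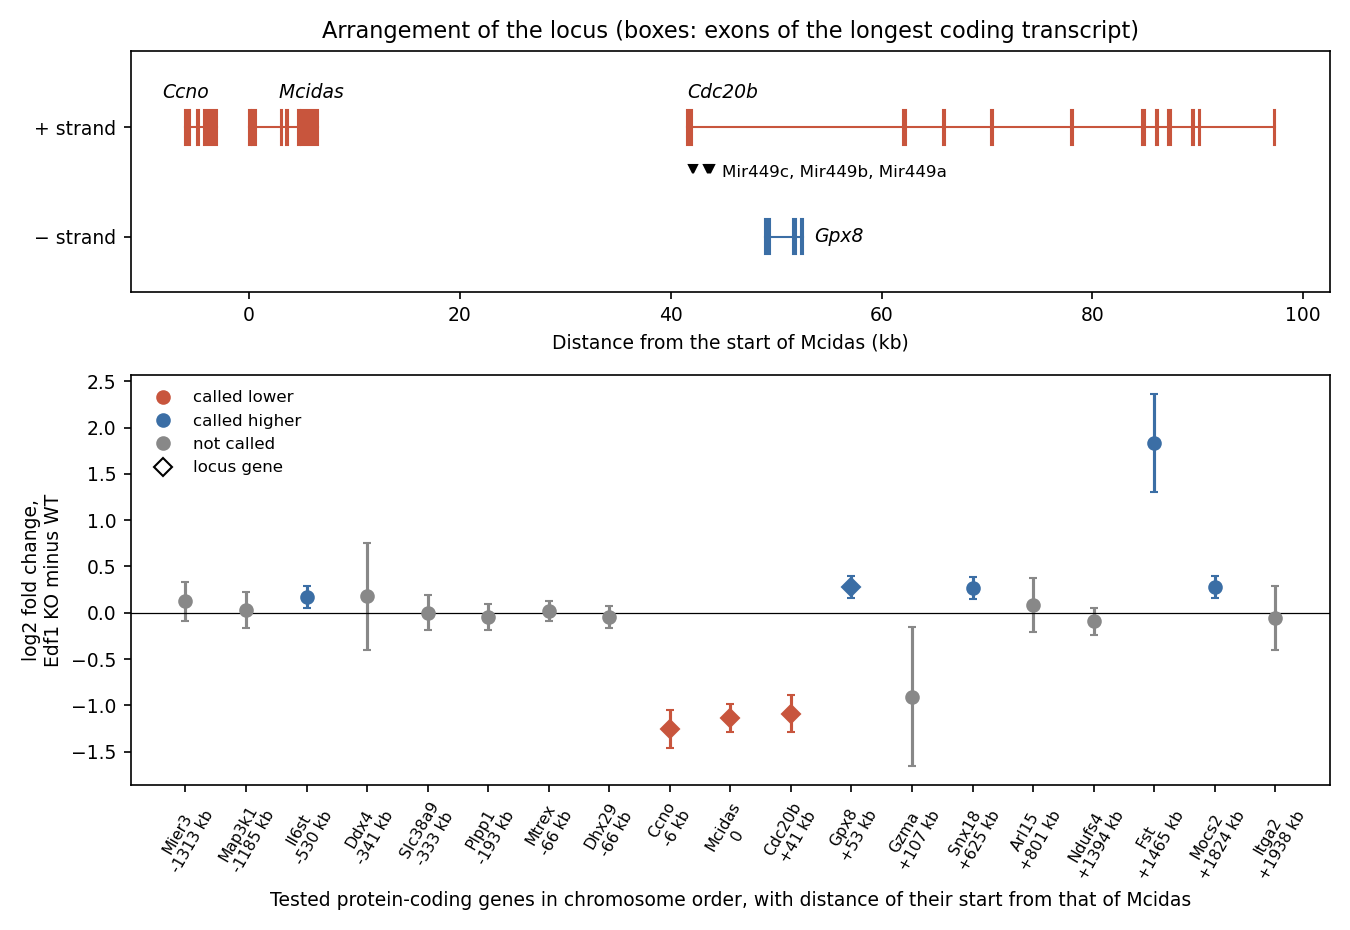
Upper panel: gene models of the locus, with distance from the start of Mcidas in kb on the x axis, strand on the y axis, boxes for exons and triangles for the Mir449 genes. Lower panel: log2 fold change (Edf1 KO minus WT, edgeR) with its unadjusted 95% interval for the 4 locus genes (diamonds) and the 15 tested neighbours (circles) in chromosome order. Ccno, Mcidas and Cdc20b lie between -1.25 and -1.09, while Gpx8 inside Cdc20b lies at 0.28.

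The microRNAs of intron 2 are shown because they tie Cdc20b to the miR-34 family, whose targets are described further on. Mature sequences from the RefSeq table (GRCm38.p6) are written 5′ to 3′ with the seed, bases 2 to 8, in capitals.
mmu-miR-449a-5p: uGGCAGUGuauuguuagcuggu
mmu-miR-449c-5p: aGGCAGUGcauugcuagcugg
mmu-miR-34a-5p: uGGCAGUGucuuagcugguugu
mmu-miR-34b-5p: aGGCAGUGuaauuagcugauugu
These 4 entries are the mature microRNAs of the table that carry the seed GGCAGUG. Mir449b had no mature entry there, so its sequence is not shown and the 4 need not be the whole family. The first pair lies in Cdc20b at chr13:113037549-113037570 and chr13:113036008-113036028, and the second pair lies on chromosomes 4 and 9. An mRNA library does not measure mature microRNAs, so the reads below speak only of the host transcript.

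Total counts per library ranged from 13071766 to 28087006, with the smallest total in WT replicate 2. Edf1 itself had 1105 to 2193 counts in the WT libraries and 160 to 373 in the knockout libraries, in the direction of the labels, although 23.3% of the 31-base words of its transcript also occur in the pseudogenes Gm11964 and Gm12274. The 8 ependymal markers (Foxj1, Tmem212, Ccdc153, Hydin, Rarres2, Dynlrb2, Ak7 and Spef2) were all detected. All were called lower in the knockout, beside 14.2% of all tested genes. Their median log2 fold change was -0.96, with a range from -1.40 for Tmem212 to -0.39 for Spef2. Their summed level, to which Foxj1 gave the most, was 1650 to 1800 CPM in WT and 980 to 1053 CPM in the knockout. CPM are read counts scaled to a common library size, with the trimmed mean of M values as the normalisation. A gene was called when its adjusted p-value in edgeR's quasi-likelihood test was under 0.05 after Benjamini-Hochberg adjustment over all tested genes.

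Ccno, Mcidas and Cdc20b fell to 41.7%, 45.6% and 47.1% of their WT level in the knockout, and Gpx8 rose to 121%. By this rule 3 of the 4 genes were called lower and 1 higher. Over all tested genes, 14.2% were called lower, 12.7% higher and 26.9% in either direction. All 3 falls were at least 2-fold, and 1.69% of tested genes were called lower with a fall of that size. The WT and knockout libraries did not overlap for any of the 4 genes, which was also the case for 43.3% of tested genes. The median log2 fold change of all tested genes was 0.0029.

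**Figure D2:**
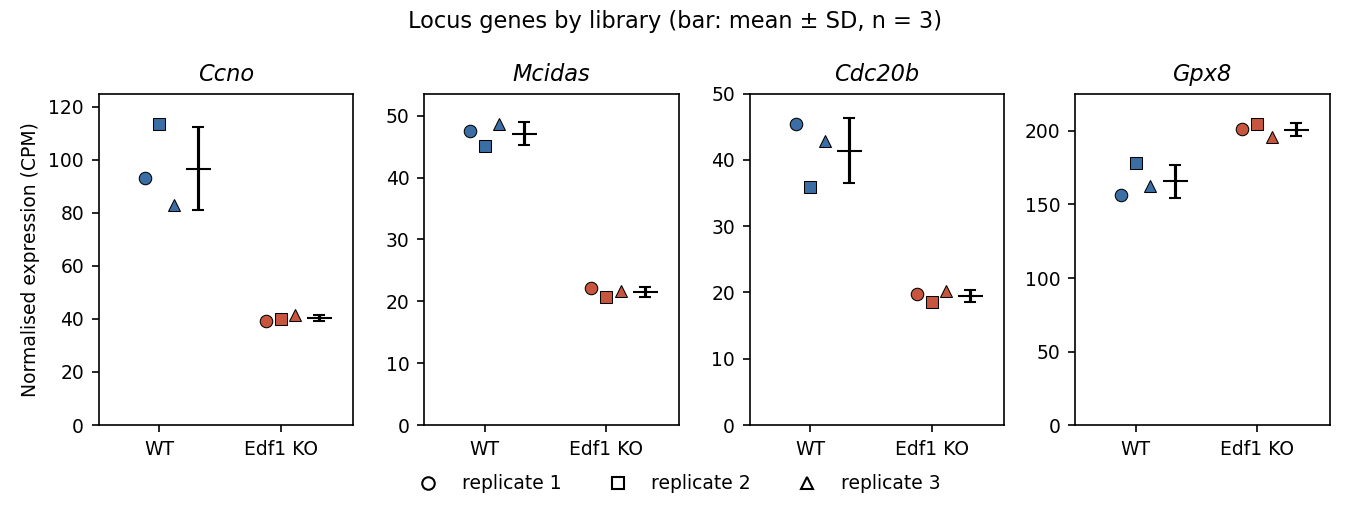
Normalised expression in CPM on the y axis for each of the 4 genes, with 1 point per library (3 WT, 3 Edf1 KO, symbols for the replicate number) and the mean ± SD beside them. The knockout libraries of Ccno, Mcidas and Cdc20b lie together below all WT libraries, and those of Gpx8 lie above all WT libraries.

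Mcidas, the transcriptional regulator of the locus, had 47.5, 45.1 and 48.7 CPM in WT replicates 1, 2 and 3. It had 22.1, 20.6 and 21.7 CPM in knockout replicates 1, 2 and 3, from 359 to 614 counts. The WT values lie close together, and even the highest knockout library was below the lowest WT library. The knockout mean was 45.6% of the WT mean, a 2.20-fold lower level. The log2 fold change was -1.13 (SE 0.070, 95% interval -1.29 to -0.98, edgeR adjusted p-value 4.35e-07). Only 171 of the 14243 tested genes had a lower log2 fold change.

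Ccno, the cyclin of the locus, varied most between WT libraries, at 93.1, 114 and 82.9 CPM in replicates 1, 2 and 3. The knockout libraries were almost alike at 39.2, 40.1 and 41.4 CPM. WT replicate 2, the library with the smallest total, was the highest for Ccno, and all 3 knockout libraries were below the lowest WT library. The mean fell to 41.7% of WT, a 2.39-fold lower level. The log2 fold change was -1.25 (SE 0.096, 95% interval -1.46 to -1.05, edgeR adjusted p-value 1.75e-06), and 121 tested genes had a lower value. Without WT replicate 2 it was -1.13.

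Cdc20b, the deuterosome-stage relative of Cdc20 and host of miR-449, had 45.5, 35.9 and 42.8 CPM in WT replicates 1, 2 and 3. It had 19.7, 18.5 and 20.3 CPM in the knockout libraries. Here WT replicate 2 was the lowest WT library, the opposite of Ccno. The mean fell to 47.1% of WT, a 2.13-fold lower level. The log2 fold change was -1.09 (SE 0.092, 95% interval -1.29 to -0.89, edgeR adjusted p-value 3.67e-06), and 196 tested genes had a lower value.

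Gpx8, on the opposite strand within Cdc20b, went the other way. It had 157, 178 and 162 CPM in WT replicates 1, 2 and 3, and 201, 205 and 196 CPM in the knockout. The groups are closer than for the other 3 genes but do not overlap. The mean rose to 121% of WT, with a log2 fold change of 0.28 (SE 0.056, 95% interval 0.16 to 0.40, edgeR adjusted p-value 0.00273). Of the tested genes, 84.6% had a lower log2 fold change, so the rise itself is of a common size.

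In bulk RNA, fewer multiciliated cells and less RNA of these genes per cell cannot be told apart. The ependymal markers fell together with Mcidas, Ccno and Cdc20b, and their part in those falls was not tested. Microglial markers also fell with the 3 genes: 9 of 11 were called lower, beside 14.2% of all tested genes. Their median log2 fold change was -0.57. Their summed level was 2010 to 2159 CPM in WT libraries and 1352 to 1394 CPM in knockout libraries. The fibroblast and mural lists moved in the direction of Gpx8, as did most radial glia and astrocyte markers by value. Of the 9 radial glia and astrocyte markers, 7 were higher and 2 lower by value, and 3 were called higher and 1 lower. Their median log2 fold change was 0.12. Their summed level was 4044 to 4247 CPM in WT and 4421 to 4576 CPM in the knockout. Over all tested genes, 12.7% were called higher. Of the 6 fibroblast markers, 5 were called higher, and their summed level was 71.5 to 90.6 CPM in WT and 127 to 169 CPM in the knockout. All 3 tested mural markers of 4 listed were called higher, with sums of 782 to 827 CPM and 929 to 1005 CPM. Choroid plexus markers, which would mark another ciliated epithelium, were mixed. Of 8 listed, 5 were tested and 2, Otx2 and Cldn2, were called higher. By value 3 were higher and 2 lower, Ttr and Clic6 (log2 fold changes -0.11 and -0.27, neither called). The sums overlapped, at 105 to 132 CPM in WT and 122 to 145 CPM in the knockout. No marker of the ependymal, microglial, fibroblast, mural or choroid plexus lists was at 0 in all libraries. The part of all these cells in the locus values was not tested.

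Per kilobase of the longest coding transcript, the 4 genes differed in level in a fixed order. In WT, Gpx8 had 159 CPM per kb, Ccno 51.5, Cdc20b 25.6 and Mcidas 19.8. In the knockout the levels were 193 CPM per kb for Gpx8, 21.5 for Ccno, 11.4 to 12.5 by library for Cdc20b and 9.03 for Mcidas. The closest neighbours in that order, Cdc20b and Mcidas, did not overlap within a genotype: the WT libraries had 22.2 to 28.1 CPM per kb for Cdc20b and 19.0 to 20.5 for Mcidas. In the knockout libraries Mcidas had 8.67 to 9.29, again below Cdc20b. Which transcripts of Cdc20b, with 5 annotated, were expressed cannot be read from counts per gene, and a shorter transcript would raise its level per kb.

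Ratios between genes were taken within each library to compare the sizes of the changes, as differences of log2 CPM. There were 6 such ratios, each tested with an exact two-sided permutation test whose smallest possible p is 0.1 with 3 libraries against 3, so none could pass 0.05. Ccno minus Mcidas was 1.02 ± 0.29 in WT and 0.90 ± 0.067 in the knockout (SD, n = 3 each), a change of -0.12 (exact permutation p = 0.7, adjusted 0.8). Over the 9 pairings of a knockout with a WT library this change ran from -0.51 to 0.19. Cdc20b minus Mcidas changed by 0.054 (range over pairings -0.096 to 0.23), from -0.19 ± 0.13 to -0.14 ± 0.034 (SD, n = 3 each, exact permutation p = 0.7, adjusted 0.8). Cdc20b minus Ccno changed by 0.17 (range over pairings -0.16 to 0.67, exact permutation p = 0.8, adjusted 0.8). The genotypes overlapped in all 3 ratios, so no difference in fall between Mcidas, Ccno and Cdc20b was detectable with 3 libraries a group, within the ranges given. Without WT replicate 2 these changes had the opposite sign, at 0.036, -0.014 and -0.050.

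The other 3 ratios separated the genotypes. Gpx8 minus Mcidas went from 1.81 ± 0.15 to 3.22 ± 0.076 (SD, n = 3 each), so Gpx8 reads outnumbered Mcidas reads 3.51-fold in WT and 9.32-fold in the knockout. Foxj1 encodes the forkhead factor that drives motile cilia genes and is switched on downstream of Mcidas. Mcidas minus Foxj1 went from -4.06 ± 0.13 to -4.60 ± 0.050, a change of -0.54, and it was below 0 in every pairing of libraries (-0.68 to -0.33). Against Gmnc, which acts before Mcidas, the ratio went from 0.34 ± 0.058 to -0.61 ± 0.085, a change of -0.95 with pairings from -1.07 to -0.79. Each of these 3 ratios reached the smallest exact permutation p of 0.1 (adjusted 0.2). The ratios to Foxj1 and Gmnc speak of those genes alone. Log2 fold changes of the other multiciliation factors listed below ran from -1.31 for Foxn4 to 0.0020 for Rfx3. Myb had -1.13, beside -1.13 for Mcidas.

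**Figure D3:**
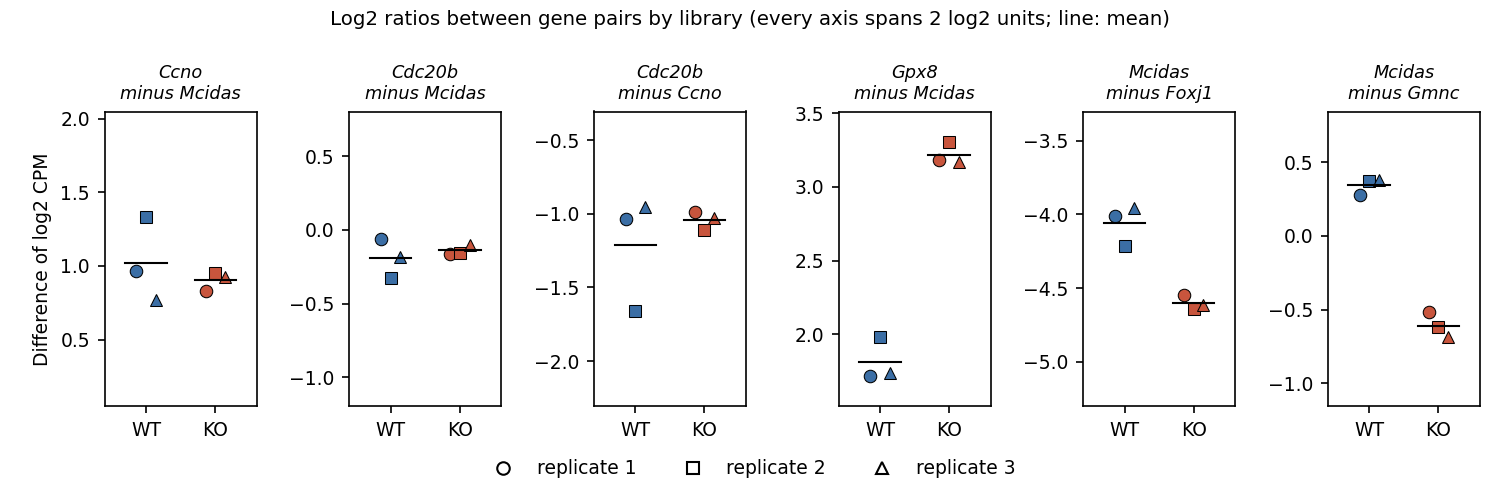
Differences of log2 CPM between the genes of each pair (y axis) by library, with symbols for the replicate number and a line at the group mean, on axes that all span 2 log2 units. The first 3 pairs, among Ccno, Mcidas and Cdc20b, overlap between genotypes, and the last 3 pairs do not.

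Neighbouring genes were called about as often as genes in general. Of the 20 nearest protein-coding genes in the table, 10 on each side, 15 were tested, 0 were called lower and 4 were called higher, with a median log2 fold change of 0.028. The 4 calls, all higher, are 26.7% of the tested neighbours. Of all tested genes, 26.9% were called in either direction, 12.7% higher and 14.2% lower. At an unadjusted p under 0.05 in edgeR 1 neighbour was lower, and DESeq2 and limma each called 0 lower. The helicase genes Dhx29 and Mtrex, whose starts lie 66.4 kb before that of Mcidas, had mean levels of 81.8 and 119 CPM in WT libraries against 79.2 and 121 CPM without Edf1. Their log2 fold changes were -0.046 and 0.018 (SE 0.054 and 0.050) with edgeR adjusted p-values of 0.582 and 0.823. On the other side, Gzma, a granzyme gene of cytotoxic lymphocytes, had only 7 to 27 counts per library and a log2 fold change of -0.90 (SE 0.35, edgeR adjusted p-value 0.0722). The genes called higher were Fst, Mocs2, Snx18 and Il6st. Fst, which encodes the activin antagonist follistatin, rose from 1.68 to 6.37 CPM (log2 fold change 1.84, SE 0.24), and Mocs2, of molybdenum cofactor synthesis, by 0.28 (SE 0.055). Snx18, a sorting nexin gene, rose by 0.26 (SE 0.054). Il6st, the shared receptor subunit of the interleukin 6 family, rose by 0.17 (SE 0.056), a call lost in 6 of 15 alternatives (edgeR adjusted p-values over the alternatives 0.0214 to 0.211, with DESeq2 and limma included).

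Promoter sequences are shown because Ccno, Mcidas and Cdc20b fell together while Gpx8 did not. Each window of 300 bases holds 250 bases before and 50 bases from the annotated start onward in RefSeq (GRCm38.p6), 5′ to 3′ on the strand of the gene. The RefSeq starts can differ from the GENCODE starts given above. The Cdc20b window begins past its GENCODE start, chr13:113035111, and so lies inside that gene model. Match positions below count from the RefSeq start. Capitals mark matches to the motifs searched on both strands: the E2F core GCGNGAA, the box motif CCAAT, the RFX half-site GTTGCC, the MYB core AACNGNC, the forkhead motif GTAAACA and the TATA box TATAAA.
Ccno chr13:112987552-112987851, plus strand: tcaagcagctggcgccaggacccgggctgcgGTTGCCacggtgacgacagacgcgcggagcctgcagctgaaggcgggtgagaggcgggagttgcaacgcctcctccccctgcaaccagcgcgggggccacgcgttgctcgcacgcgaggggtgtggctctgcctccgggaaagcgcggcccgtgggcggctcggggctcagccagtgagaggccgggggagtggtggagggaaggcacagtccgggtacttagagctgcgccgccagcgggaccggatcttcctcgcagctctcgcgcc
Mcidas chr13:112993618-112993917, plus strand: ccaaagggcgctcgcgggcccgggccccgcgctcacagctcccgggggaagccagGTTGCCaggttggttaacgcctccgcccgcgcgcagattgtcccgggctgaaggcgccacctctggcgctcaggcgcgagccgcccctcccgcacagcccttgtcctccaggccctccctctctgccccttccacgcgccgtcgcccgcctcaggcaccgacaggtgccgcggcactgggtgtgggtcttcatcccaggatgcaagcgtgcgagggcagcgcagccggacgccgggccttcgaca
Cdc20b chr13:113035129-113035428, plus strand: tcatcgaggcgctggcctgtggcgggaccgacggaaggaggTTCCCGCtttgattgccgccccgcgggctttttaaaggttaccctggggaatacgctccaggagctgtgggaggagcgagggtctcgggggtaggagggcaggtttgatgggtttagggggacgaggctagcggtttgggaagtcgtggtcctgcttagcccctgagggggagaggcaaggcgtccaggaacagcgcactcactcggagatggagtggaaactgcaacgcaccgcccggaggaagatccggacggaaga
Gpx8 chr13:113046339-113046638, minus strand: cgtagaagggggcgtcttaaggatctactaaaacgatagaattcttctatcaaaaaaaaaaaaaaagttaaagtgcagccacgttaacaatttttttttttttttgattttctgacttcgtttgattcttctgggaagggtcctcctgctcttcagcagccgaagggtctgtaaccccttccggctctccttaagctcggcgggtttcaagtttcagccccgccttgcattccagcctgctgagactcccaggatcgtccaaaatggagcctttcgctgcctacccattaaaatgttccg
Ccno and Mcidas each held 1 match to the RFX half-site on their own strand, beginning at -219 and -195 from the start, a motif present in 12.7% of 27025 promoters of the same length. Cdc20b held 1 match to the E2F core on the opposite strand, beginning at -209, against 9.05% of promoters. None of the 4 windows held a match to the other motifs, which occurred in 37.9% (CCAAT), 32.8% (MYB core), 3.55% (forkhead) and 14.2% (TATA box) of promoters. The windows of Ccno, Mcidas and Cdc20b had 72.0%, 73.3% and 63.0% G and C and that of Gpx8 45.3%, with a median of 52.7% over all promoters. A match describes these letters and does not show that a factor binds there.

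Genes for partners of multicilin were examined next. Of 16 genes of the geminin family, E2F, DP and retinoblastoma proteins and MuvB complex, 1 was called lower and 1 higher, beside 26.9% of all tested genes called in either direction, and the median log2 fold change was 0.043. Leaving out a library gave 0 to 3 called lower, with 3 without WT replicate 2 and 0 without any other library. It gave 0 or 1 called higher, with 0 without WT replicate 2 or 3 or knockout replicate 1 or 2. E2f4, a DNA-binding partner of multicilin, had 31.4 ± 0.43 CPM in the WT libraries and 27.1 ± 0.089 CPM in the knockout libraries (SD, n = 3 each), a log2 fold change of -0.21 (SE 0.067). That call was lost in 10 of 15 alternatives, with adjusted p-values from edgeR, DESeq2 and limma of 0.0312 to 0.104. E2f5, the other partner, had 42.5 and 43.6 CPM (log2 fold change 0.045, SE 0.065, edgeR adjusted p-value 0.660). The pocket protein gene Rbl1 had a log2 fold change of 0.24 (SE 0.079), called in the reported fit and lost in 8 of 15 alternatives (adjusted p-values 0.0391 to 0.155). Gmnn, which encodes geminin, an inhibitor of replication licensing, had 0.19 (SE 0.085, edgeR adjusted p-value 0.127), and Gmnc had -0.18 (SE 0.075, edgeR adjusted p-value 0.0992).

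Among 8 transcription factors of the multiciliation programme, a list that again holds Gmnc, 6 were called lower (beside 14.2% of all tested genes) and 0 higher, with a median log2 fold change of -0.42. None was higher at an unadjusted p under 0.05 in edgeR, nor called higher by DESeq2 or limma. Foxn4, a forkhead gene of multiciliated cells, changed by -1.31 (SE 0.12), Myb, which acts early in the programme, by -1.13 (SE 0.057), and Trp73, which encodes the p73 regulator of multiciliogenesis, by -1.06 (SE 0.086). Myb lies between Ccno at -1.25 and Cdc20b at -1.09. Foxn4 lies below Ccno and Trp73 just above Cdc20b, each by less than the SE of either gene of the pair. Differences between these factors and the locus genes were not tested. Foxj1 had -0.59 (SE 0.049). Of 22 centriole amplification genes, 21 were tested, 17 were called lower (81.0%) and 0 higher, with a median of -0.45. Here too, 0 were higher at an unadjusted p under 0.05 in edgeR or called higher by DESeq2 or limma. The deuterosome gene Deup1 changed by -1.27 (SE 0.064), Ccdc78, another deuterosome component, by -0.97 (SE 0.12), Stil, of procentriole assembly, by -0.93 (SE 0.067), and Plk4, the kinase that starts centriole duplication, by -0.83 (SE 0.067). Cep63, the relative of Deup1 used at existing centrioles, had -0.11 (SE 0.055, edgeR adjusted p-value 0.177).

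**Figure D4:**
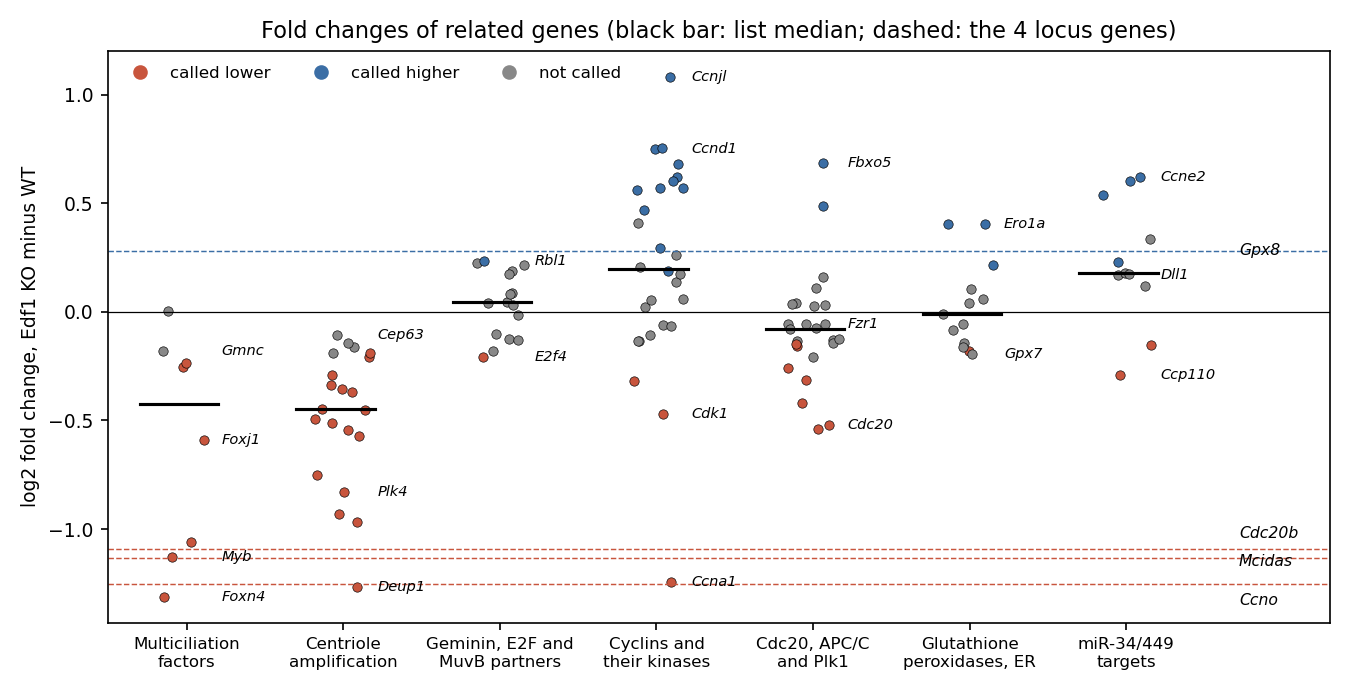
Log2 fold change (Edf1 KO minus WT, edgeR) of each tested gene in 7 lists of related genes on the y axis, coloured by call, with a black bar at the list median and dashed lines at the 4 locus genes. Points near the Ccno, Mcidas and Cdc20b lines occur among the multiciliation factors, the centriole genes and, for Ccna1, the cyclins.

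Ccno was set beside the other cyclins and their main kinases. Of 29 such genes 28 were tested, with a median log2 fold change of 0.20. Of these, 3 were called lower (10.7%) and 12 higher (42.9%), against 14.2% and 12.7% of all tested genes. Ccna1, which encodes cyclin A1, had a log2 fold change next to that of Ccno. It had 82.0, 92.1 and 78.2 CPM in WT replicates 1, 2 and 3 and 34.6, 35.2 and 36.3 CPM in the knockout replicates, with a log2 fold change of -1.24 (SE 0.069, edgeR adjusted p-value 2.16e-07). As with Ccno, WT replicate 2 was the highest library and the knockout libraries lay close together. The mitotic kinase gene Cdk1 and the mitotic cyclin gene Ccnb1 fell less, by 0.47 and 0.32 on the log2 scale (SE 0.062 and 0.057). The genes called higher included the low-expressed Ccnjl at 1.08 (SE 0.25), Cdk2, the kinase of S phase, at 0.76 (SE 0.074), Ccnd1, the cyclin of G1, at 0.75 (SE 0.080) and Ccna2, the somatic cyclin A, at 0.68 (SE 0.077).

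Cdc20b was set beside its relatives Cdc20 and Fzr1 and the machinery they act in. Cdc20, the mitotic activator of the anaphase-promoting complex, had a mean of 66.1 ± 6.2 CPM in the WT libraries and 45.9 ± 0.56 CPM in the knockout libraries (SD, n = 3 each). Its log2 fold change of -0.52 (SE 0.070, edgeR adjusted p-value 0.000145) was called lower but smaller in size than that of Cdc20b, and the difference between the genes was not tested. Fzr1, the activator used in G1, had 47.6 and 45.7 CPM (log2 fold change -0.056, SE 0.068, edgeR adjusted p-value 0.588). Its direction changed to 0.0034 without WT replicate 2. Of the 25 genes of this list, 7 were called lower (beside 14.2% of all tested genes) and 2 higher, with a median of -0.077. The number called lower was 4 without WT replicate 1 or knockout replicate 2 or 3, and 4 to 9 over all libraries left out in turn. Besides Cdc20 the larger falls were those of Spag5, a spindle protein gene (-0.54, SE 0.065), and of the complex subunit Anapc11 (-0.42, SE 0.090).

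Other cell division genes of the list set beside Cdc20b differed in direction. Plk1, the mitotic kinase, had a log2 fold change of -0.26 (SE 0.085), a call lost in 6 of 15 alternatives (adjusted p-values 0.0350 to 0.183 over edgeR, DESeq2 and limma). Pttg1, which encodes securin, the inhibitor of separase, changed by -0.32 (SE 0.063), and Espl1, which encodes separase, rose by 0.49 (SE 0.10). Fbxo5, an inhibitor of the anaphase-promoting complex, rose by 0.69 (SE 0.13).

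For the microRNAs hosted by Cdc20b, 12 genes known as targets of the miR-34 and miR-449 family were listed, of which 11 were tested. The list shares Ccne2 and Cdk6 with the cyclin list and Ccp110 with the centriole amplification list. Of the 11 tested genes, 4 were called higher and 2 lower (36.4% and 18.2%, against 12.7% and 14.2% of all tested genes). Their median log2 fold change was 0.18. Without knockout replicate 1, 2 were called higher and 0 lower. The number called lower was also 0 without WT replicate 1 or knockout replicate 2 or 3, and 1 without WT replicate 3. Ccne2, a cyclin of S phase entry, rose by 0.62 (SE 0.11), Cdk6, a G1 kinase, by 0.60 (SE 0.16) and Met, a receptor kinase, by 0.54 (SE 0.11). Notch1, a receptor whose signalling holds back multiciliation, rose by 0.23 (SE 0.063), and its ligand gene Dll1 had 0.17 (SE 0.11, edgeR adjusted p-value 0.269). Ccp110, which encodes a cap that must leave the centriole before a cilium grows, had -0.29 (SE 0.096), and the deacetylase gene Hdac1 had -0.15 (SE 0.049). The calls of Ccp110, Hdac1, Notch1 and Cdk6 were lost in 7, 6, 4 and 3 of 15 alternatives.

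Gpx8 was set beside the other glutathione peroxidases and the oxidative folding machinery of the endoplasmic reticulum. Of 16 genes 13 were tested, with a median log2 fold change of -0.0093. Of these, 3 were called higher (23.1%) and 1 lower (7.7%), against 12.7% and 14.2% of all tested genes. Without WT replicate 2, 5 were called higher. Without WT replicate 3, 2 were called lower, and without any 1 of the knockout replicates 0 were. Gpx7, the closest relative of Gpx8 and also resident in the endoplasmic reticulum, had 17.2, 18.3 and 17.7 CPM in WT replicates 1, 2 and 3 against 15.6, 14.3 and 16.3 CPM in those of the knockout (log2 fold change -0.19, SE 0.086, edgeR adjusted p-value 0.115). Ero1a, the oxidase whose hydrogen peroxide Gpx8 can remove, rose by 0.40 (SE 0.081), and Gpx3, the secreted plasma peroxidase, by 0.40 (SE 0.091). The sulfhydryl oxidase gene Qsox1 rose by 0.22 (SE 0.058), and Gpx4, which protects membranes from lipid peroxides, changed by -0.18 (SE 0.059). The calls of Qsox1 and Gpx4 were each lost in 4 of 15 alternatives.

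The genes whose log2 CPM followed each locus gene most closely over the 6 libraries were found among 12889 tested genes with a mean log2 CPM of at least 1. These correlations mostly restate the difference between the genotypes and are given as a description. For Mcidas they were Dnah11, an axonemal dynein heavy chain gene (Pearson r = 0.9997), Kndc1 (0.9995) and Nfam1 (0.9992). For Ccno they were Ccdc153, a marker of ependymal cells (0.9992), Armt1 (0.9991) and Fam216a (0.9987). Cdc20b was followed most closely by Pcdhgc4 (0.9989), which shares exons with other protocadherin genes of its cluster,, Ptpn18 (0.9979) and 2210408I21Rik (0.9972). Gpx8 was followed by N4bp3 (0.9986), Ccdc80 (0.9956) and Rnf13 (0.9949). Within the locus, Mcidas correlated with Cdc20b at 0.989 and with Ccno at 0.962, and Ccno with Cdc20b at 0.928. All of these values are over 6 libraries that form 2 genotype clusters, so the likeness within a genotype rests on 3 points. The changes of the followers ranged widely in size, from a log2 fold change of -1.74 (SE 0.071) for Dnah11 to -0.56 (SE 0.12) for Nfam1 among those of Mcidas.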

How the data were processed

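The authors deposited whole-number read counts per gene symbol, with 1 column per library. Per the submitters' processing notes, FastQC 0.11.2, cutadapt 1.11, HISAT2 2.1.0 and GRCm38 were used. The counting program, its annotation and its strand setting are not given in the sources used here. The table had 0 rows without a gene name. The members and gene lists were chosen with earlier results of these data known. P-values measure only the spread between these libraries.

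Counts were analysed in R 4.3.3 with edgeR 4.0.16: filterByExpr, TMM scaling and the quasi-likelihood test of Edf1 KO against WT without covariates. SEs were derived from the F statistic (absolute log2 fold change over the root of F). Log2 CPM used a prior count of 2. Ratios were tested in SciPy 1.17.1. Fits were tested on simulated data. Alternatives were other scalings, filters and thresholds, DESeq2 1.42.0, limma 3.58.1 (voom), a GC and length correction (splines with 4 degrees of freedom, 98.9% of tested genes matched), the replicate block and each library left out. Genes were named by list: up to 3 largest rises and falls among calls, plus those needed for their role, the locus neighbours, Foxj1 and Gmnc, and the 3 closest correlates of each locus gene. Marker lists not described in the report were, as called lower and higher of tested genes, endothelial 1 and 1 of 2, neuron 2 and 0 of 6 and oligodendrocyte lineage 1 and 0 of 6. Of all tested genes, 14.2% were called lower and 12.7% higher.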

Additional observations from a re-analysis of the deposited data

How the results depend on the processing

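Mcidas, Ccno, Cdc20b and Gpx8 kept their direction and their call in all 15 alternatives each. Their log2 fold changes ran from -1.16 to -1.09 for Mcidas, -1.35 to -1.13 for Ccno, -1.18 to -1.01 for Cdc20b and 0.24 to 0.40 for Gpx8, and the highest adjusted p-value was 0.0213, for Gpx8 without knockout replicate 2. The count of changed genes was 3833 and moved by over 1.5 times only at a threshold of 0.01, to 2213, where fewer genes pass by construction. Leaving out each library in turn gave 2658 to 4340 genes.

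The ratios among the 3 multiciliation genes had no stable direction. Over the fits that left out a library, the change in Ccno minus Mcidas ran from -0.25 to 0.036, in Cdc20b minus Mcidas from -0.014 to 0.12 and in Cdc20b minus Ccno from -0.050 to 0.30. Each reversed without WT replicate 2, and the cause was not tested. Fzr1 also reversed without that library, to 0.0034, with a range of -0.099 to 0.0034 over the libraries left out. Gmnc was called lower in 2 of 15 alternatives, the GC and length correction (-0.27) and the fit without WT replicate 2 (-0.22). The other 3 ratios kept their sign in all 9 alternatives.

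With replicate number as a block term, 4065 genes were called, 3683 of them shared with the reported fit. Deviations of same-numbered libraries correlated at 0.0693, 0.0604 and 0.0372. Differently numbered libraries were not compared, so these values cannot decide whether the libraries were paired. The reported fit assumed no pairing. Under the block Mcidas was at -1.13, Ccno at -1.24, Cdc20b at -1.08 and Gpx8 at 0.28.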
